A study of Homo sapiens with 9 samples.

Results

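The baseline transcriptome of HCT 116 cells carrying an empty vector was described from 3 of the 9 arrays of the series, those labelled as control vector replicates 1, 2 and 3. HCT 116 is an epithelial line established from a human colorectal cancer, and the cells came from the ATCC. The control cells were transfected with the empty plasmid pcDNA3. The other 6 arrays were of cells given KL-FL, which encodes mouse full-length klotho, or KL1, which encodes a subdomain of it, with 3 arrays each. Every group was therefore transfected, with JetPEI or polyethylenimine, and which array had which reagent is not given. No untransfected cells were analysed here, so baseline means 24 h after transfection with an empty plasmid. Each array was made from 100 ng of total RNA. The labels do not say whether the 3 replicates were separate cultures, so the spread between them may be technical. All 17958 genes that had a probe set naming only that gene were ranked by their mean level over the 3 control arrays.

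A human cell spends most of its transcription on ribosomal RNA and on the machinery of translation, while the genes that mark its lineage run from abundant keratins to transcription factors present at few copies. Colorectal cells are epithelial: keratins 8, 18 and 19, the adhesion molecule EPCAM and claudins mark them, and the homeobox factors CDX1 and CDX2 direct their intestinal character. In the colon, stem cells at the crypt base depend on Wnt signals and express LGR5, and their descendants become absorptive colonocytes, mucus-secreting goblet cells or hormone-secreting cells. Cell lines derived from tumours can keep the epithelial program and lose parts of the differentiated one.

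Levels are log2 values as the authors deposited them. They reached 12.18 over genes on the control arrays, with a median of 5.39 over the control means. A level on such an array mixes the amount of RNA with how well the probes bind it, so a rank is a rank of signal and not of transcript number, and the brightest probe sets may be compressed. No detection call was used here. Olfactory receptor genes, which are switched off in most cells outside the nose, served as a reference for dim signal. The 335 on the array had a median of 2.96, and the 95th percentile of their control means was 3.96. Of all genes, 12742 (71.0%) lay above that level and are called above the olfactory reference below. A stricter level, the 99th percentile of the same genes at 5.89, left 7677 genes (42.7%). Hair keratin-associated protein and bitter taste receptor genes, 87 in all, gave a 95th percentile of 5.88, and that level gave the same number of genes above it in each of the 45 gene lists described here. The stricter level itself depends on 4 bright olfactory receptor genes: without them it would be 4.13, with 12257 genes (68.3%) above it, so the counts given for it describe the level of 5.89 only. Between 3.96 and 5.89 a gene cannot be called on or off from these values.

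**Figure D1:**
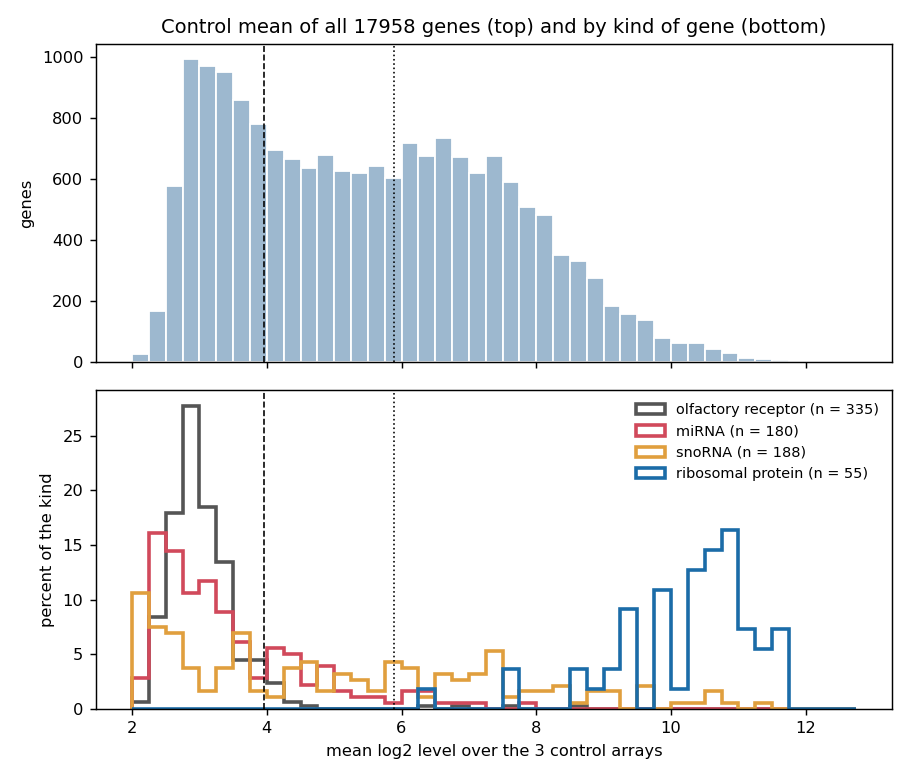
Number of genes (top) and percent of each kind of gene (bottom) by mean log2 level over the 3 control arrays, in bins of 0.25. The dashed and dotted lines are the 95th and 99th percentiles of olfactory receptor genes, 3.96 and 5.89; ribosomal protein genes all lie to the right of both, while miRNA genes have a median of 3.10.

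The 3 control arrays ordered the genes almost identically. Over the 17958 genes their Pearson correlations were 0.999 in each pair, as description, since the arrays share probes and line. Medians over genes were 5.39, 5.40 and 5.38. Of the 100 genes with the highest signal, 88 were in the top 100 on each of the 3 arrays. The gene at rank 100 had a mean of 10.57, as had the first gene outside the list, so the border of that list is arbitrary.

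The highest signals came from the ribosome and from stable nuclear RNAs. RNA18SN5, the 18S ribosomal RNA, read 12.02, 12.13 and 12.18 on control replicates 1, 2 and 3. RN7SK, the small nuclear RNA that restrains transcription elongation, read 11.82, 11.85 and 11.87, and RNA28SN5, the 28S ribosomal RNA, 11.80, 11.88 and 11.83. Each of these 3 RNAs spanned at most 0.15 across arrays. The highest coding gene was PTMA, prothymosin alpha, a small acidic nuclear protein, at 11.86, 11.77 and 11.79. Next among the first 20 came the ribosomal protein genes RPL10 (mean 11.72), RPS28 (11.61), RPL18 (11.57), RPL41 (11.56), RPL8 (11.44) and RPL5 (11.42), with the pseudogene RPL13AP5 at 11.64. MT2A, a metallothionein that binds zinc and copper, read 11.65, 11.55 and 11.72. The cytoskeletal genes ACTG1 and TUBB had means of 11.59 and 11.32, and the glycolytic enzyme GAPDH 11.48. EEF1A1, which brings aminoacyl-tRNA to the ribosome, had a mean of 11.43, the constitutive chaperone HSPA8 11.38 and the linker histone gene H1-4 11.46. SNORD13, a small nucleolar RNA, and MPLKIP were also among the first 20, with 11.35 and 11.34. Many of these genes have near-identical copies or pseudogenes, so their signal cannot be assigned to a single locus. PTMA shows the range: its 6 probe sets had control means from 4.83 to 11.81. The lowest probe sets of RNA28SN5, EEF1A1, RPL41 and MPLKIP were at 4.81, 5.75, 6.28 and 6.76, while those of RPS28 and RPL5 were at 11.56 and 11.40.

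By kind, 88 of the 100 highest were protein-coding, against 16555 of the 17958 genes. The rest were 5 snoRNAs, 3 snRNAs, 2 ribosomal RNAs, 1 lncRNA and 1 transcribed pseudogene. The lncRNA was MALAT1, a nuclear RNA, at 10.93. Protein-coding genes had a median of 5.56 and lncRNA genes 3.74. Of the lncRNA genes 40.0% lay above the olfactory reference and of the protein-coding genes 73.0%.

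The ribosomal proteins form the highest of the 45 gene lists examined. All 55 measured members lay above the stricter level, with a median of 10.56, which is higher than 99.4% of genes. The lowest were RPS29 at 6.50 and RPS21 at 7.53. Nuclear and splicing proteins had a median of 9.76 over 25 genes and translation factors 9.58 over 36. EEF1G (11.01), EEF2 (10.91) and PABPC1 (10.81), the poly(A)-binding protein, lay close to the ribosomal genes, while the cap-binding protein EIF4E read 5.29 and EIF5A 5.60. Many of these transcripts share a feature of sequence that the ranking did not use. Messenger RNAs of the translation machinery are known to begin with a C followed by a run of pyrimidines, the 5′ terminal oligopyrimidine tract through which their translation answers to mTOR. In the RefSeq promoter table (build GRCh38.p14) a start with C and at least 4 further C or T bases, read on the gene's strand, was present at 4.04% of 27305 annotated starts. It was present at 31 of the 47 ribosomal protein genes matched there (66.0%), 12 of 28 translation factors (42.9%) and 19 of the 74 matched genes among the 100 highest (25.7%). With the listed ribosomal proteins left out, 6 of 55 of the highest genes carried it (10.9%). Allowing the tract to begin within 3 bases of the annotated start raised the shares to 72.3% of ribosomal protein genes and 11.3% of all starts. Outside the ribosomal list, 595 coding genes with such a start had a median control level of 6.42, and 12840 without it 5.64. A match describes these letters only, and an annotated start can be off by some bases. The windows below run from 10 bases before to 20 bases after the annotated start, 5′ to 3′, with the matching tract in capitals. RPL10 and GAPDH are shown as bright genes without a match at that base. The bright ribosomal protein genes RPS28 (11.61) and RPL3 (11.10) also had no match there and are not shown.
RPL18 (chr19:48619159-48619188, minus strand): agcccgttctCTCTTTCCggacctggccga
RPL41 (chr12:56116623-56116652, plus strand): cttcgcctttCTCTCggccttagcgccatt
RPS3 (chr11:75399508-75399537, plus strand): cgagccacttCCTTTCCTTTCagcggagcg
EEF1A1 (chr6:73521013-73521042, minus strand): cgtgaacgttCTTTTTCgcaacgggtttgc
RPL10 (chrX:154398055-154398084, plus strand): ccactctcagaaatatacgtctgtcacagt
GAPDH (chr12:6535254-6535283, plus strand): gtgcatccctgtccggatgctgcgcctgcg

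Epithelial genes were bright. All 9 fixed epithelial markers lay above the stricter level, with a median of 9.37. KRT8, a keratin of simple epithelia, read 10.77, 10.79 and 10.65, and its partner KRT18 10.11, 10.06 and 10.09. EPCAM, an adhesion molecule of epithelial cells, read 9.78, 9.74 and 9.78, and CDH1, the E-cadherin of adherens junctions, 8.48, 8.53 and 8.53. The replicates of these 4 genes spanned at most 0.15, and their order in signal was the same on every array. ESRP1, which regulates epithelial splicing, had a mean of 9.33, and the tight junction genes CLDN7, CLDN4 and CLDN3 had 9.37, 7.91 and 6.54. Over the wider list of epithelial adhesion and keratin genes 23 of 28 lay above the olfactory reference, with a median of 7.42 that exceeded 80.1% of genes. The lowest members were the intestinal cadherin CDH17 at 2.75 and CEACAM6 at 2.91, with CEACAM5, the carcinoembryonic antigen, at 3.26.

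Markers of intestinal identity and differentiation were dim beside them. CDX2 read 6.49, 6.56 and 6.47, above the stricter level, and CDX1 read 4.91, 4.94 and 5.00, below it. KRT20, a keratin of mature colonocytes, read 4.29, 4.41 and 4.30, and VIL1, the villin of the brush border, 3.86, 3.77 and 3.73. Of the 6 colon identity markers 4 lay above the olfactory reference and 1, CDX2, above the stricter level. Among the intestinal and endodermal transcription factors the highest were KLF5 (8.19), EHF (7.41), SOX9 (7.41) and ELF3 (7.40), and the lowest ISX (4.08) and HNF4G (3.99). Genes of mature enterocytes and colonocytes had a median of 3.82 over 22 genes, and 2 of them passed the stricter level, CA2, a carbonic anhydrase, at 7.45 and SLC26A2, a sulfate transporter, at 6.15. Genes of goblet, Paneth and enteroendocrine cells had a median of 3.61, and 0 of 23 passed the stricter level. The goblet mucin MUC2 was at 4.25 and the secretory factor ATOH1 at 4.51. SI, the brush-border sucrase, was at 2.62 and AGR2 at 2.54. A dim probe set does not show that a gene is silent, and in bulk RNA fewer expressing cells and less RNA per cell cannot be told apart.

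Stem and progenitor genes were split. CD44, a hyaluronan receptor, read 10.19, 10.20 and 10.23, and ALCAM, BMI1 and RNF43 had means of 8.59, 8.27 and 7.57. LGR5, the crypt-base receptor, read 3.02, 2.98 and 2.98, near the olfactory median of 2.96. ASCL2, a stem-cell transcription factor and Wnt target, read 3.73, 3.86 and 3.76. In all, 9 of 17 passed the stricter level, against 42.7% of all genes.

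Markers of other cell types were mostly below the stricter level. The leukocyte gene PTPRC read 2.74, 2.72 and 2.75 and the endothelial gene PECAM1 3.51, 3.50 and 3.51. Of the fixed markers 0 of 4 leukocyte, 0 of 4 endothelial and 3 of 7 fibroblast genes passed the olfactory reference, and 0 of these 15 passed the stricter level. The highest fibroblast marker was COL1A1, at 5.69, 5.76 and 5.73. Hepatocyte markers, with ALB at 3.28, 3.26 and 3.25, had 1 of 10 above the reference. In the wider lists 5 of 13 leukocyte, 3 of 10 endothelial, 3 of 12 fibroblast, 4 of 8 muscle, 4 of 8 kidney tubule and 7 of 9 neural genes lay above the olfactory reference. Of these, those above the stricter level were CD68, a lysosomal glycoprotein of macrophages that other cells also make, at 6.20, and SYT1, the calcium sensor of synaptic vesicles, at 7.97, 7.98 and 7.93. SYT1 was the only one of the 9 neural genes above the stricter level and had a higher signal than 87.1% of genes. PRAME, a cancer-testis antigen, read 6.46, 6.82 and 6.46, while the other 8 listed antigens lay between 2.78 and 3.70. Of 15 mesenchymal genes 9 lay above the olfactory reference and 4 above the stricter level. The integrin ITGA5 read 7.58, 7.55 and 7.75, and the transcription factors SNAI1 and SNAI2 had means of 6.41 and 6.01. VIM, the intermediate filament of mesenchymal cells, read 3.49 on each control array and ZEB1 5.04, 4.99 and 4.83. The median of that list was 4.91, below the median of all genes.

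**Figure D2:**
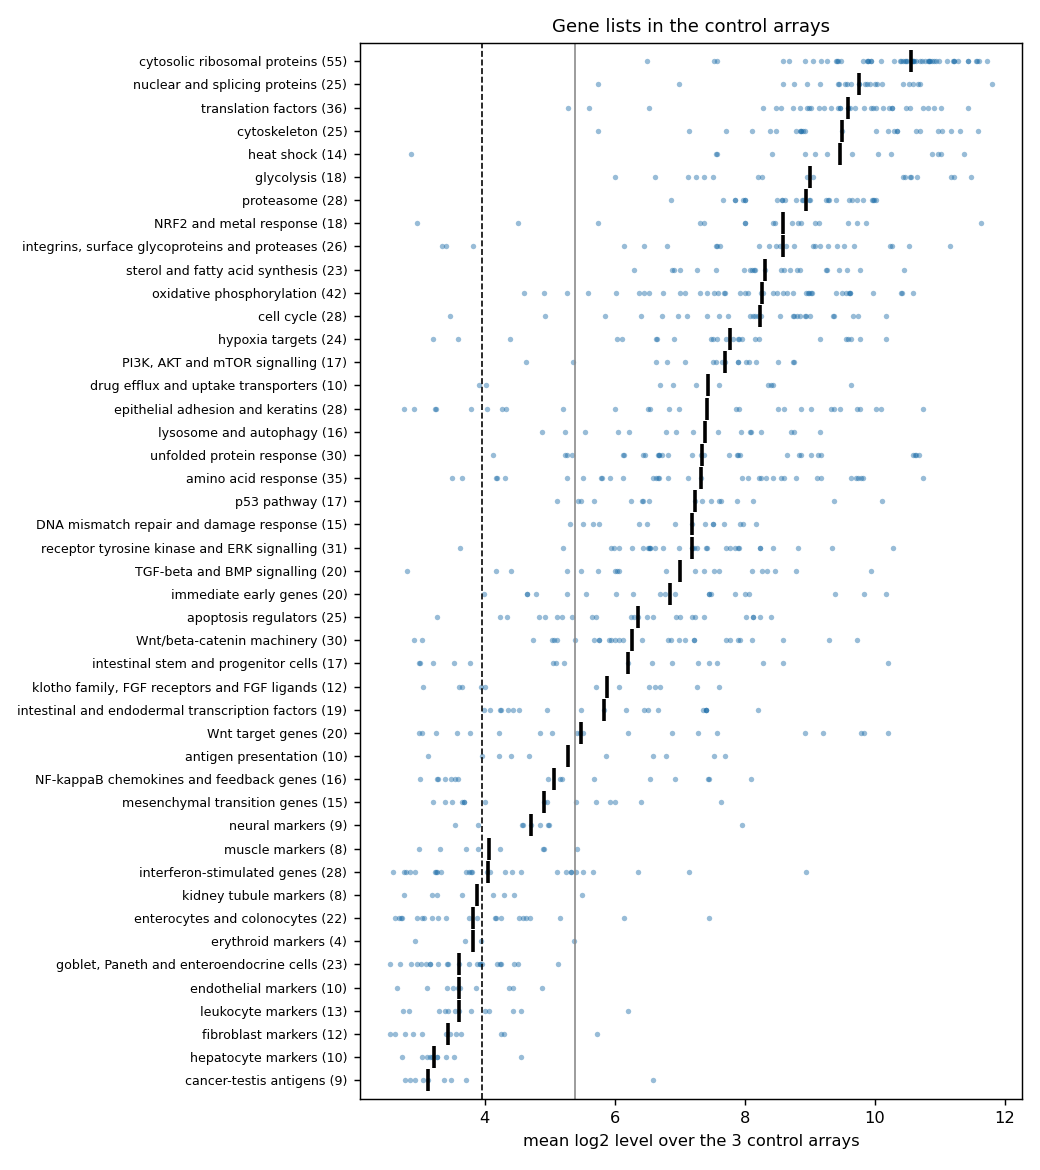
Mean log2 level over the 3 control arrays of every measured member of 45 gene lists (points, members counted in brackets) with the list median (black bar), sorted by median. The dashed line is the olfactory reference at 3.96 and the grey line the median of all genes at 5.39; housekeeping lists end at the top and lists of differentiated or foreign cell types at the bottom.

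Signalling genes were mostly above the reference, with some receptors and targets below it. In the canonical Wnt pathway, a Wnt ligand binds Frizzled and LRP receptors and beta-catenin is spared from degradation to act with TCF factors. CTNNB1, which encodes beta-catenin, read 9.69, 9.71 and 9.75, and the transcription factor TCF7L2 had a mean of 9.29. The ligand-handling gene WLS was at 8.59 and the ligand WNT16 at 7.89, whereas WNT5A read 2.91 and the TCF-family factor LEF1 3.04. APC, a scaffold of the destruction complex, read 6.16, 6.15 and 6.07. Of 30 genes of the machinery 20 passed the stricter level. Among 20 Wnt targets 9 did: MYC, the growth-promoting transcription factor, read 9.84, 9.82 and 9.83, BMP4 had a mean of 9.78, DKK1, a secreted Wnt inhibitor, 9.20 and CCND1, cyclin D1, 8.93. AXIN2, a negative-feedback target, read 6.20, 6.22 and 6.20, and LGR5, ASCL2 and LEF1 lay below the reference.

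The receptor tyrosine kinase list had 29 of 31 genes above the stricter level. EREG, a ligand of the EGF receptor, read 10.25, 10.30 and 10.30, and EGFR itself 7.21, 7.15 and 7.19. MET, the receptor of hepatocyte growth factor, had a mean of 9.34. The ERK-responsive gene PHLDA1 was at 8.82, and ERBB4 was the lowest member at 3.62. In the TGF-beta pathway SMAD4, the shared mediator of the signal, read 8.34, 8.33 and 8.36 and the receptor TGFBR2 7.65, 7.57 and 7.59. The BMP-responsive genes ID1 and ID2 had means of 9.94 and 8.79. In the p53 list GDF15, a secreted stress cytokine, read 10.08, 10.10 and 10.16, the ubiquitin ligase MDM2 9.34, 9.38 and 9.37 and the cell cycle inhibitor CDKN1A 7.60, 7.54 and 7.64. CDKN2A read 6.57, 6.44 and 6.59. The mismatch repair gene MSH6 read 7.19 on each of the 3 arrays. Cell cycle genes had a median of 8.23 over 28 genes, led by PLK1 (10.17), CDK4 (9.74) and CDC20 (9.66), with cyclin D2, CCND2, lowest at 3.47. The place of CDC20 rests on the brighter of its 2 probe sets, and the other had a control mean of 5.16.

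The receptors through which klotho is known to act were also read at baseline. Klotho is a membrane protein that pairs with FGF receptors to form the receptor of the hormone FGF23. KL, which encodes human klotho, read 3.05, 3.06 and 3.03 in control, and its relative KLB 3.58, 3.57 and 3.66, all below the olfactory reference. KL had means of 3.19 in KL-FL and in KL1, against 3.05 in control; neither difference was called by limma (Benjamini-Hochberg adjusted p = 0.637 and 0.927). The unadjusted p was 0.00720 and 0.00574, and the klotho arrays did not overlap the controls. The transfected klotho is of mouse and the probes were designed on human sequence, and whether they read the transgene was not tested. FGFR1 read 7.22, 7.30 and 7.30, FGFR4 6.61, 6.66 and 6.57, FGFR2 6.58, 6.51 and 6.49 and FGFR3 5.95, 6.22 and 6.02. FGFR4 and FGFR2 differ by less than their arrays spread. Among ligands FGF19 had a mean of 6.69, and FGF23 and FGF21 had 3.94 and 3.65.

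Stress and metabolic programs were at unequal levels. All 18 glycolytic genes passed the stricter level, with a median of 9.00, and ENO1 and LDHA had means of 11.21 and 11.18. All 23 genes of sterol and fatty acid synthesis did too, led by SCD at 10.44, as did all 28 proteasome genes, led by PSMB2 at 10.02. Another probe set of SCD had a control mean of 5.98. In the unfolded protein response, the program named in the title of the series, 26 of 30 passed. The ER chaperone HSPA5 read 10.64, 10.67 and 10.61, ATF4, its translationally controlled transcription factor, 9.17, 9.13 and 9.19, XBP1 had a mean of 7.93, and DDIT3, a stress-induced transcription factor, read 6.67, 6.66 and 6.72. Interferon-stimulated genes were low: 3 of 28 passed the stricter level, IFITM3 (8.94), IFI6 (7.15) and OAS3 (6.35), and the median was 4.05. The cytokine CXCL10 was at 2.58 and IFNB1 at 2.76. In the NF-kappaB list the inhibitor NFKBIA led with 8.09 and the interleukin IL6 was at 3.55. Of the antigen-presentation genes TAPBP (7.69) and B2M (7.53) led, and the immunoproteasome subunit PSMB8 was lowest at 3.12. ABCC2, an efflux pump, led the drug transporters at 9.63, whereas ABCG2 and ABCB1 were at 3.92 and 4.01.

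Survival and growth regulators were read at moderate levels. Of 25 apoptosis regulators 15 passed the stricter level. The anti-apoptotic genes BCL2L1 and MCL1 led, at 8.32, 8.40 and 8.47 and at 8.23 on each array, and BCL2A1 was lowest at 3.22, 3.29 and 3.29. In the PI3K and mTOR list 15 of 17 passed. The kinase PDPK1 read 8.81, 8.77 and 8.69, AKT1 8.70, 8.72 and 8.79, and the transcription factor FOXO3 4.46, 4.75 and 4.68. Another probe set of PDPK1 had a control mean of 6.96. Of 35 genes of the amino acid response 26 passed, led by the glutamine transporter SLC38A2 at 10.76, 10.70 and 10.78. The lysosomal list had 13 of 16 above that level, with PSAP, the precursor of the saposins, at 9.14, 9.15 and 9.17 and the protease CTSD at 8.74, 8.81 and 8.72.

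MicroRNA genes were mostly dim. Of 180 on the array 49 lay above the olfactory reference and 10 above the stricter level. MicroRNAs are cut from longer primary transcripts and silence messenger RNAs through a short seed, and the array cannot tell the mature form from its precursors. MIR221 read 7.68, 7.91 and 7.91, MIR21 7.06, 7.16 and 7.18, MIRLET7A2 6.81, 7.10 and 6.98 and MIR31 6.64, 6.68 and 6.59. MIR326, MIR181B1 and MIR222 had means of 6.43, 6.35 and 6.27. The mature sequences of these 7 genes, with the arm known as the main product of each, are shown to group the genes by seed. They come from RefSeq (GRCh38.p14), with the seed, bases 2 to 8, in capitals.
hsa-miR-221-3p (chrX:45746180-45746202, minus strand): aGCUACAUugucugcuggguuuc
hsa-miR-222-3p (chrX:45747036-45747056, minus strand): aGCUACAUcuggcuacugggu
hsa-miR-21-5p (chr17:59841273-59841294, plus strand): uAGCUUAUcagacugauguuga
hsa-let-7a-5p (chr11:122146568-122146589, minus strand): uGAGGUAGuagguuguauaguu
hsa-miR-31-5p (chr9:21512158-21512178, minus strand): aGGCAAGAugcuggcauagcu
hsa-miR-326 (chr11:75335108-75335127, minus strand): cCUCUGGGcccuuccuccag
hsa-miR-181b-5p (chr1:198858925-198858947, minus strand): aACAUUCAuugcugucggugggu
The seed GCUACAU is shared by miR-221-3p and miR-222-3p, and the other 5 each have a seed of their own.

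Spread among the controls was small. Above the olfactory reference the median SD over the 3 arrays was 0.044, against 0.066 in KL-FL and 0.053 in KL1. Without KL-FL replicate 3 the KL-FL value was 0.035. That value rests on 2 arrays, whose SD tends to be smaller than that of 3, so it cannot be set beside the others. Of the 12742 genes 616 (4.83%) spanned over 0.25 between the lowest and highest control, 37 (0.290%) over 0.5 and 3 over 1. Spread depended little on level: the median SD was 0.047 in the lowest of 5 equal bins by level and 0.040 in the highest. Exact ties were common in the deposited values: 556 of the 17958 genes (3.10%) had the same value on all 3 control arrays and 3214 (17.9%) on 2 of the 3. These genes enter the SDs given here as they stand. Genes often used as references differed in SD over the 3 control arrays. PPIA and HPRT1 had SDs of 0.012 and 0.013 and TBP 0.018. GAPDH had 0.051, PGK1 0.062 and SDHA 0.085, and an SD of 0.085 is larger than that of 84.1% of genes. Within the klotho groups the order was different. PPIA and HPRT1 had SDs of 0.087 and 0.078 there, TBP 0.054, GAPDH 0.067, PGK1 0.049 and SDHA 0.027. An order by SD over 3 arrays therefore does not rank these genes by steadiness. Without 1 control replicate, 15 to 22 genes spanned over 0.5 in place of 37, and each of the 3 left out lowered the count by over 1.5 times. A gene's span cannot widen when an array is left out, so this fall says nothing about any 1 array.

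The genes that varied most were led by small nuclear and nucleolar RNAs. SNORA14A, which guides pseudouridylation, read 4.51, 6.89 and 4.58, an SD of 1.36. The spliceosomal RNA genes RNU5D-1, at 4.87, 5.31 and 6.12, and RNU4-2, at 3.77, 4.35 and 4.87, followed. Of the 50 genes with the largest SD 15 were snoRNAs or snRNAs (30.0%), while these make up 0.957% of the 12742 genes from which the 50 were drawn. In 14 of the 15 control replicate 3 was the highest, and in 13 replicate 1 was the lowest. Over all 122 snoRNA and snRNA genes above the reference, 65 (53.3%) were highest in replicate 3, against 24.0% of all genes above it. A tie for the highest value was counted for the first of the tied replicates, so ties can only lower these shares. RNA18SN5 was also highest in replicate 3, while RNA28SN5, at 11.80, 11.88 and 11.83, was highest in replicate 2. Any part of these RNAs in the pattern was not tested.

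Replicate 2 set many of the remaining genes. ARL2, a small GTPase of microtubule and mitochondrial function, read 9.40, 8.47 and 9.23. MTX2, a mitochondrial outer membrane protein, read 6.62, 7.31 and 6.61. NPW, which encodes neuropeptide W, read 8.63, 7.97 and 8.67. Replicate 2 stood apart in 18 of the 50 genes, higher in 10 and lower in 8. The klotho arrays were not used to choose these genes, and KL1 replicate 2 stood out in the same direction in 16 of the 18. SNORA14A read 7.68 on KL1 replicate 2 and 4.49 and 4.50 on the other KL1 arrays. MTX2 read 7.49 there against 6.58 and 6.50, and ARL2 8.61 against 9.27 and 9.39. KL-FL replicate 2 was the extreme KL-FL array in that direction in 7 of the 18, and it read 4.57 for SNORA14A and 9.30 for ARL2, close to the remaining arrays. Among all genes above the reference in which control replicate 2 deviated most, the shares were 49.1% for KL1 and 36.1% for KL-FL. The 2 exceptions were BHLHA9 and CSH2. The arrays share the number 2, and the labels do not say what that number stands for. RPL13 and the pseudogene RPL13P5 were both higher in replicate 2, at 9.22, 9.71 and 9.26 and at 4.93, 5.38 and 4.90, and near-identical copies may be read by the same probes. The other arrays set nearly as many genes: replicate 1 was the odd array in 16 of the 50 and replicate 3 in 16. Over all genes above the reference, replicates 1, 2 and 3 were the odd array in 4967, 3972 and 3803. Genes with the same value on all 3 controls were counted for replicate 1, so its number is too high.

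**Figure D3:**
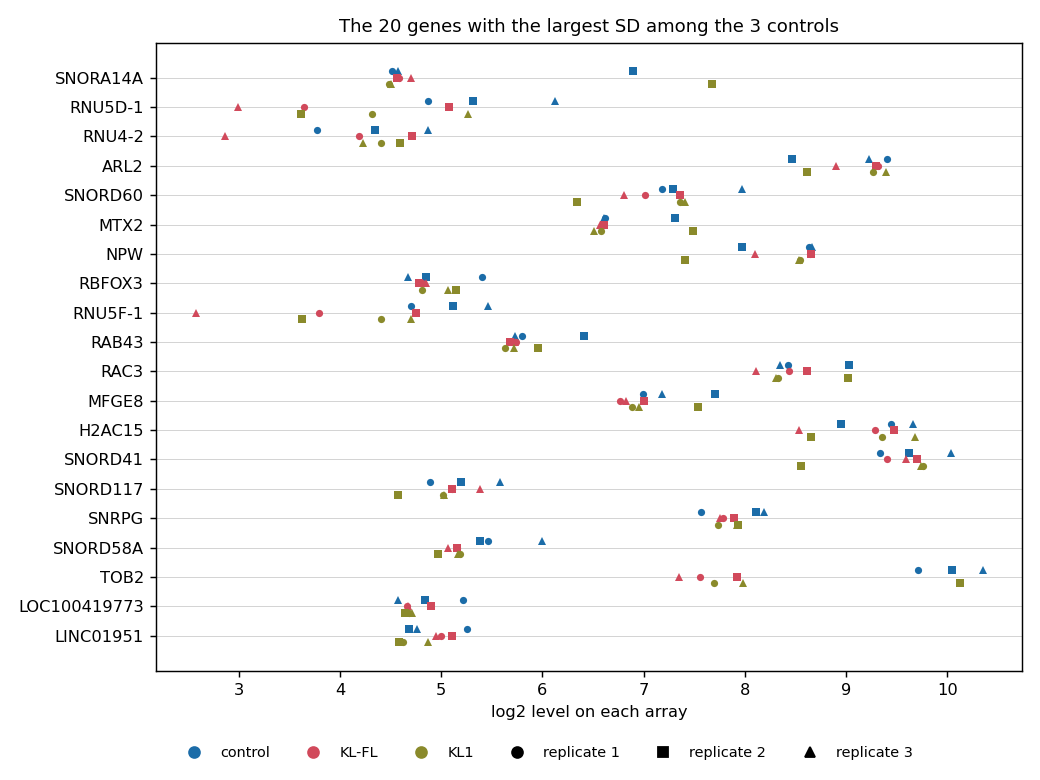
Log2 level on each of the 9 arrays for the 20 genes with the largest SD among the 3 controls, with colour for the group and marker shape for the replicate number. Control and KL1 replicate 2 (squares) stand apart together in SNORA14A, ARL2, MTX2, NPW and MFGE8, while KL-FL replicate 2 lies with the remaining arrays.

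As a set the 50 also varied among the klotho arrays. Their median SD within the klotho groups was 0.240, against 0.070 for all genes above the reference, and 49 of the 50 exceeded that median. Without KL-FL replicate 3 the values were 0.211 and 0.056. TOB2 has the widest klotho spread of the coding genes among the first 20, and its probe sets disagreed. Its chosen probe set read 9.71, 10.05 and 10.35 in control and 7.56, 7.92 and 7.35 in KL-FL, and in KL1 it read 7.70, 10.13 and 7.98. Another probe set held identical values, and the remaining one read 7.11, 7.07 and 6.99 in control and between 6.96 and 7.25 on the klotho arrays. The difference between KL-FL and control on the first, -2.43 ± 0.54 (SE, n = 3 arrays each), was not called by limma (Benjamini-Hochberg adjusted p = 0.550), and the 3 probe sets give no single level for the gene.

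Listed genes known to answer to low oxygen were mostly lowest in control replicate 1 and highest in replicate 3. Under low oxygen the factor HIF1A escapes degradation and raises glucose uptake, glycolysis and vessel-forming signals. ADM, which encodes the vasodilator adrenomedullin, read 7.53, 7.92 and 8.02, and ANGPTL4, a lipase inhibitor, went from 7.63 in replicate 1 to 8.08 in replicate 3. ALDOC, a glycolytic aldolase, read 8.65, 9.15 and 9.07, and ENO2, an enolase, 6.87, 7.17 and 7.34. PDK1, which holds pyruvate back from mitochondria, read 7.50, 7.72 and 7.90. In each of the 5 replicate 1 was the lowest, and in all but ALDOC replicate 3 was the highest. The transcription factor gene BHLHE40 (7.86, 8.10 and 8.41) and HILPDA (7.85, 8.21 and 8.33), outside the list but known hypoxia targets, were among the 50 most variable genes and had the same order. Of the 24 measured genes of the hypoxia list 22 were lowest in replicate 1, and 18 were also highest in replicate 3. The list, called hypoxia targets below, also holds the factor genes HIF1A and EPAS1. These were highest in replicate 1, at 9.83, 9.76 and 9.72 and at 7.93, 7.88 and 7.89. Among all genes 36.3% were lowest in replicate 1 and 14.1% were also highest in replicate 3. Tied values were counted for the first of the tied replicates, in every list and among all genes. Ties can therefore only raise the counts of genes lowest in replicate 1. EGLN1, GPI and ACACA, 1 in each of the 3 lists described here, were counted there through a tie. The mean deviation from the control mean was -0.106, 0.022 and 0.084 on replicates 1, 2 and 3. Glycolysis genes deviated by -0.080, 0.015 and 0.065, with 14 of 18 lowest in replicate 1, and genes of lipid synthesis (sterols and fatty acids) by -0.074, 0.013 and 0.061, with 17 of 23. INSIG1, a brake on sterol synthesis, read 7.91, 8.12 and 8.31. Some other lists also had many members lowest in replicate 1, with smaller deviations: 18 of 25 cytoskeletal genes (-0.034, 0.017 and 0.017) and 38 of 55 ribosomal protein genes (-0.030, 0.019 and 0.011). The unfolded protein response list deviated by -0.010, 0.017 and -0.007 and the epithelial list by 0.0003, 0.004 and -0.005. The shift in replicate 1 kept its sign in all 3 lists after centring of array medians, quantile normalization and averaging of probe sets, which were chosen after seeing the data.

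**Figure D4:**
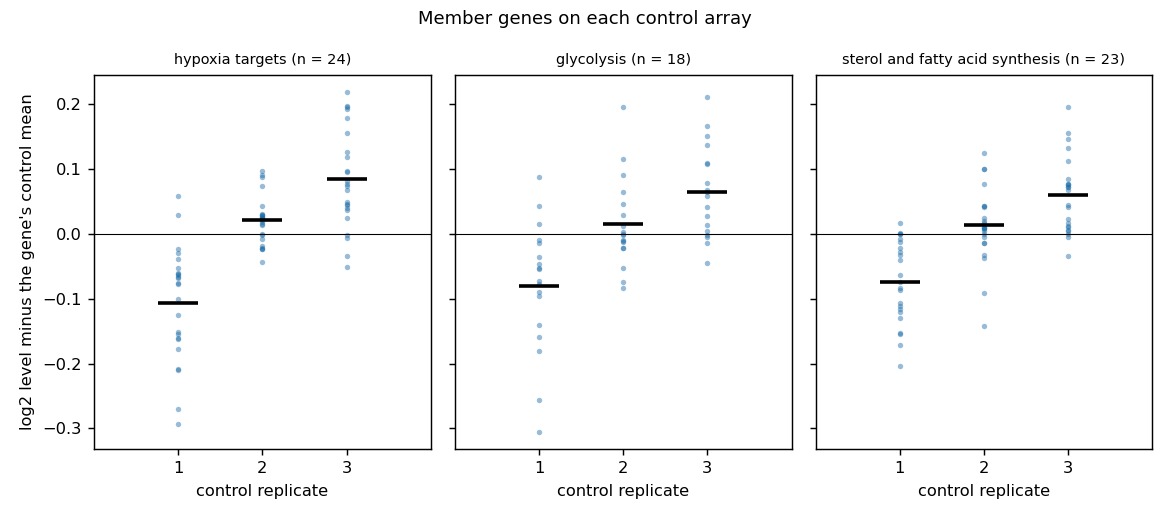
Log2 level of each list member minus its own control mean, on control replicates 1, 2 and 3, with the list mean as a bar. Points in replicate 1 lie mostly below 0 and those in replicate 3 mostly above, with list means of -0.106 and 0.084 for hypoxia targets.

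The klotho arrays did not extend this range. List means for the hypoxia targets were 7.38, 7.50 and 7.57 in control, 7.38, 7.51 and 7.47 in KL-FL and 7.46, 7.46 and 7.44 in KL1. The control replicates thus spread as widely as all 9 arrays. ADM read 7.46, 7.70 and 7.58 in KL-FL and 7.65, 7.58 and 7.57 in KL1. Of the 3 lists 0 genes were called between a klotho group and control by limma, the lowest Benjamini-Hochberg adjusted p being 0.688. At an unadjusted p under 0.05 there were 4 in KL-FL and 3 in KL1 over the 3 lists, of 65 genes, against 7.16% and 5.10% of all genes tested.

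Upstream sequence of these genes is shown because HIF binds a short core. The form ACGTG of this core was searched with its reverse complement CACGT in the 250 bases before the annotated start. A match occurred in 18.7% of all 27305 promoters and in 20.9% of the 13864 that belong to genes ranked here. CACGTG holds both and counts as overlapping matches. A match occurred in 9 of 19 matched hypoxia targets (47.4%), 8 of 18 glycolysis genes (44.4%) and 4 of 21 lipid synthesis genes. Lists without that order between replicates had similar shares in places, such as heat shock genes (5 of 12, 41.7%) and stem and progenitor genes (5 of 12, 41.7%). ADM and PDK1 had no match to ACGTG or CACGT in that window. The letters GCGTG, which differ in the first base, were not searched or marked, and they do occur in the ADM window. The sequences of the 3 listed genes of largest spread with a match follow, 5′ to 3′ on the gene's strand from RefSeq (GRCh38.p14), with matches in capitals. A match describes the letters and not a bound site.
ALDOC (chr17:28576896-28577145, minus strand): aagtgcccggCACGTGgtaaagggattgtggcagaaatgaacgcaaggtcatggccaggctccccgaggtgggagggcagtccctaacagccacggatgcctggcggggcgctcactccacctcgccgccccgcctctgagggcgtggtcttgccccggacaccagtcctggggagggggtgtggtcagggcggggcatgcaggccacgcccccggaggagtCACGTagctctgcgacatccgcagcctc
ANGPTL4 (chr19:8363905-8364154, plus strand): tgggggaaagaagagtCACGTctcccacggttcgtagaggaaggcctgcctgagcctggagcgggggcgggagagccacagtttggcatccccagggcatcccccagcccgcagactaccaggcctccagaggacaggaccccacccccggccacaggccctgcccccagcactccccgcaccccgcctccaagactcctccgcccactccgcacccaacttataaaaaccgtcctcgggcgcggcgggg
ENO2 (chr12:6914330-6914579, plus strand): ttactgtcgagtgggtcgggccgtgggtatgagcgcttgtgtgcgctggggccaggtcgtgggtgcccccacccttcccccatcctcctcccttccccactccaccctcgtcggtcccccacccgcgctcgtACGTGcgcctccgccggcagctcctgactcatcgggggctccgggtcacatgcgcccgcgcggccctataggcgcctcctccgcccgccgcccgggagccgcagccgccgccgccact

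The 4 brightest olfactory receptor genes lay in a single stretch of chromosome 11 beside the embryonic globin gene HBE1. OR51B4 read 8.61, 8.64 and 8.64, OR51B2 7.75, 7.74 and 7.71, OR51B5 6.89, 6.87 and 7.04 and OR51I1 6.49, 6.40 and 6.56. HBE1 read 8.52, 8.68 and 8.67, higher than 93.1% of genes. The next olfactory receptor gene, OR2H2, was at 4.75. Within the same stretch OR51V1, OR51B6, OR51Q1 and OR51I2 lay between 2.99 and 3.42, and OR51M1 and OR52D1 were at 4.26 and 4.13, above the olfactory reference. In KL-FL, OR51I1 read 6.73, 6.50 and 7.34 and in KL1 6.66, 6.48 and 6.51. Without these 4 genes the olfactory reference would be 3.87, with 13018 genes above it, and the stricter level would be 4.13.

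**Figure D5:**
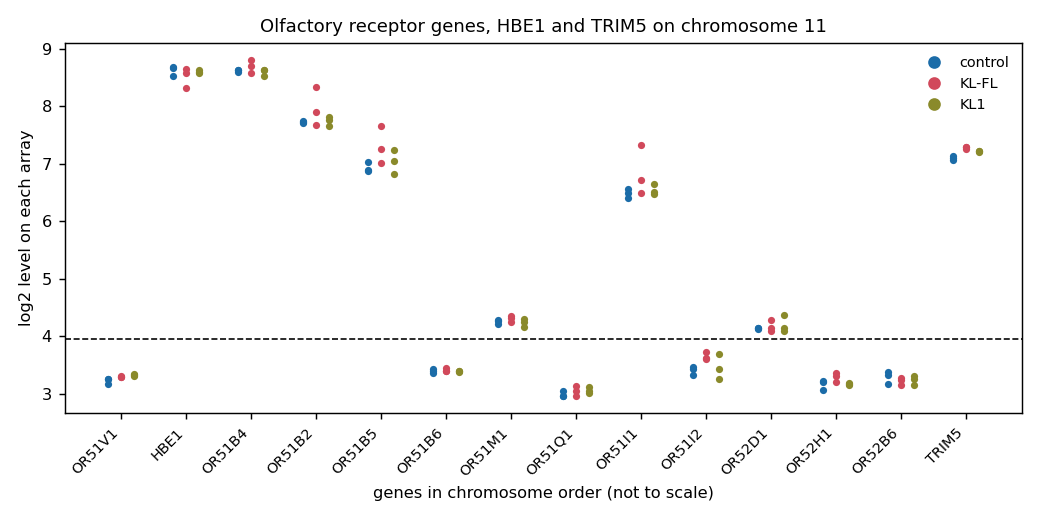
Log2 level on each of the 9 arrays for 12 olfactory receptor genes, HBE1 and TRIM5 in their order on chromosome 11, evenly spaced. HBE1, OR51B4, OR51B2, OR51B5 and OR51I1 lie between 6.40 and 8.82 on every array, and the dashed line is the olfactory reference at 3.96.

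Most baseline levels were close to those after klotho transfection, with more differences in the unfolded protein response list. Over genes the control means correlated with the KL-FL means at 0.999, as description, and 93 of the 100 highest genes were also among the 100 highest in KL-FL. The limma fit over all 9 arrays called 1 gene in each comparison with control, which is 0.00557% of the 17958 tested, in KL-FL and again in KL1. Both comparisons share the 3 control arrays. The gene was DDIT3: it read 6.67, 6.66 and 6.72 in control, 7.27, 7.48 and 7.23 in KL-FL and 7.45, 7.47 and 7.48 in KL1. The klotho arrays did not overlap the controls. The differences were 0.65 ± 0.06 (SE, n = 3 arrays each) and 0.78 ± 0.06, with Benjamini-Hochberg adjusted p of 0.0348 and 0.00687 in limma. With a replicate block 0 genes were called by limma in either comparison, and 1374 and 970 had an unadjusted p under 0.05, against 1286 and 916 without the block. Leaving out any 1 of the control arrays also gave 0 calls in both comparisons. The KL-FL call was lost too without KL-FL replicate 1, KL1 replicate 1 or KL1 replicate 3, and the KL1 call without any 1 of the KL1 arrays. In the unfolded protein response list DDIT3 was the 1 gene of 30 called in each comparison. At an unadjusted p under 0.05 there were 14 of 30 in KL-FL and 14 in KL1, against 7.16% and 5.10% of all genes, and 13 and 16 did not overlap the controls, against 10.4% and 9.47% of all genes. The median difference of the list was 0.12 and 0.14, against 0.010 and 0.003 over all genes. HERPUD1, a factor of ER-associated degradation, read 7.90, 7.87 and 7.92 in control, 8.41, 8.45 and 8.17 in KL-FL and 8.45, 8.29 and 8.43 in KL1, and was not called in limma (Benjamini-Hochberg adjusted p = 0.408 and 0.478). That list was chosen with these results known.

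Of the 100 highest genes 0 were called, with 5 and 6 at an unadjusted p under 0.05, and 11 in KL-FL and 9 in KL1 had arrays that did not overlap the controls. These counts are near the shares over all genes, 7.16% and 5.10% at that p in limma and 10.4% and 9.47% without overlap. Of the 50 most variable genes 0 were called, with 4 and 3 at an unadjusted p under 0.05, and 3 and 2 did not overlap. In the list of epithelial adhesion and keratin genes 0 of 28 were called, 0 had an unadjusted p under 0.05 and 0 did not overlap, in KL-FL and in KL1. EPCAM read 9.80, 9.84 and 9.72 in KL-FL and 9.82, 9.80 and 9.78 in KL1, around its control values. CDX2 had means of 6.49 ± 0.17 (SD, n = 3 arrays) in KL-FL and 6.45 ± 0.10 in KL1, and LGR5 lay between 2.88 and 3.03 on all klotho arrays. Of the 19 intestinal and endodermal transcription factors and the 17 stem and progenitor genes 0 were called, with 0 at an unadjusted p under 0.05 in limma. Arrays did not overlap the controls in 1 of the 19 in KL-FL and 3 in KL1. Of the 17 this held for 1 in KL-FL and 0 in KL1, against 10.4% and 9.47% of all genes.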

How the data were processed

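Expression was measured on 9 whole-transcript arrays, 3 per group. The authors deposited log2 values for 33297 probe sets, with the base of the log inferred from their range. Labelling used the WT PLUS kit, per the labels' protocols. Partek 6.6 is named, per the submitters' processing notes, while background correction and normalization are not stated in any source used. Probe sets were named through the platform's annotation: 19181 named 1 gene, 2055 several and 12061 none. Gene IDs were checked against RefSeq (GRCh38.p14), which changed 0 symbols and left 38 probe sets unmatched. Where several probe sets named a gene (895 genes), the one brightest over all 9 arrays was kept. Means, SDs and ranks were computed over the 3 control arrays in Python (pandas 2.3.3). A linear model with 3 groups was fitted over all genes with limma 3.58.1 in R 4.3.3, with two-sided p-values, Benjamini-Hochberg adjustment and a threshold of 0.05, and was tested on simulated data. Same-numbered control and KL1 arrays deviated together (correlations 0.113 to 0.322 over genes), so the numbers may pair them; those of control and KL-FL did not exceed 0.097. No array was left out. With 3 arrays a group, precision is limited by their number.

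The genes, the 45 lists and the tests were chosen with earlier results of these data known. Genes named are the 20 highest, the 20 with the largest SD above the olfactory reference, the 4 highest and 2 lowest of each list, a fixed set of lineage and pathway genes, and list members among the 50 most variable. The miRNA, olfactory receptor, globin and reference genes, HILPDA, BHLHE40 and the other genes named outside this rule were chosen after their values were seen. Some genes are not reported here. Alternatives were array centring, quantile normalization, averaging of probe sets, other reference levels, a replicate block and leaving out each array.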

Additional observations from a re-analysis of the deposited data

How the results depend on the processing

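With a replicate block the counts of genes called fell from 1 to 0 in KL-FL minus control and from 1 to 0 in KL1 minus control. Over fits that leave out an array, both counts ran from 0 to 1, and with only the 6 arrays compared KL-FL minus control called 0. At the 99th percentile of olfactory receptor genes 7677 genes lay above the reference, and 7722 with hair keratin-associated and taste receptor genes, in place of 12742. The stricter level without its 4 brightest olfactory genes left 12257 genes in place of 7677, an alternative chosen after seeing the data. Genes spanning over 0.5 numbered 15 to 22 without a control replicate in place of 37, and 3 at a threshold of 1. Both changes can only narrow a gene's span or raise the bar, so lower counts were built in. The ranking by spread rests on 3 arrays: 27 to 31 of its 50 genes stayed without a replicate, and 44 to 50 under the alternatives that kept all 3. The 100 highest genes were steadier, with 98 to 100 kept without a replicate and 79 when probe sets were averaged. Percentiles of list medians moved by at most 2.86 points, and 30 lists had a median above that of all genes under each alternative. No detection call was used, so low levels set no bound.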

Other observations

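Levels of further genes at baseline gave these values. Among chaperones of the heat shock list HSP90AB1, HSP90AA1 and HSPB1 had control means of 11.01, 10.97 and 10.87, whereas CRYAB, a lens and muscle chaperone, read 2.87. Among surface proteins ANXA1 (11.16), S100A10 (10.52) and BSG (10.26) led, and the integrin ITGB6 was lowest at 3.34. Immediate early genes ranged from IER3 (10.18) and EGR1 (9.39) to EGR3 (3.99). The metallothioneins MT1E and MT1X had means of 9.72 and 9.13, and NQO1, a quinone reductase, 9.86, while AKR1B10 was at 2.96. In the oxidative phosphorylation list ATP5F1B led with 10.58 and ATP5MC3 was lowest at 4.60, although both encode parts of the same enzyme. The ribosomal protein genes ranged from 6.50 to 11.72.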
